A study of Mus musculus with 6 samples.

Results

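Genes of mitosis and chromosome segregation were followed in crypts of the mouse small intestine that had, or lacked, subunit 8 of the COP9 signalosome. They were 41 genes listed by name for their part in the G2 and M phases (kinases and cyclins, the spindle checkpoint, the kinetochore, motors and spindle proteins, cytokinesis), and a gene was taken when a probe set of the array carried its symbol. This held for 40 of the 41, out of 19505 genes measured; Ccnf, a cyclin-type F-box protein, was not analysed here. Total RNA came from 6 crypt preparations of C57BL/6 mice, each on 1 Affymetrix array. CSN8fl/fl mice, the controls, carried a loxP-flanked Cops8 gene, and CSN8ΔIEC mice, as their name says, had lost it from intestinal epithelial cells; no source used here names the Cre driver. In each genotype, replicates 1 and 2 were labelled females aged 16 weeks and replicate 3 a male aged 10 weeks, so labelled sex and age cannot be told apart. The samples are called biological replicates, with no statement that each was 1 mouse, so the p-values measure the spread between these samples, which may be partly technical. The comparison asks whether crypts without CSN8 differ in the transcripts of dividing cells.

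Most divisions of the small intestinal epithelium take place in the crypt, where stem cells at the base and transit-amplifying cells above them cycle, while Paneth, enterocyte and other differentiated cells do not. Transcripts of mitotic genes accumulate from S phase to mitosis and are low in resting cells, since the DREAM complex holds the genes off in G0 and G1 and B-MYB and FOXM1 turn them on in G2. These factors meet many of the promoters at a CHR element close to the transcription start, and NF-Y binds CCAAT boxes just upstream. In mitosis CDK1 with its cyclins and the Polo and Aurora kinases build the spindle, the checkpoint kinases watch the kinetochores, and the anaphase-promoting complex, a relative of the cullin-RING ligases that the COP9 signalosome acts on, then ends the process by marking cyclins and securin for destruction. In crypt RNA, fewer dividing cells and less mitotic RNA per cell cannot be told apart.

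The promoters of these genes shared short sequences that the choice of genes did not use. RefSeq promoters (GRCm38.p6), running from 250 bases before a start site to 50 after it, were given for 34 of the 40 genes. CHR letters, TTTGAA or TTCGAA on either strand, were in 28 of the 34 (82.4%), against 21.7% of the 27025 genes with a promoter in the table. CCAAT on either strand was in 27 (79.4%, against 41.1%), and 19 held it at least 2 times (55.9%, against 13.3%). Both were in the same promoter of 25 genes (73.5%, against 8.61%). E2F letters, TTTGGCGC or TTTCCCGC on either strand, were in 0 of the 34 and in 1.8% of all genes. Matches of different motifs overlapped 1 time in these promoters. In 25 genes a CHR match lay within the 50 bases on either side of a start site. A match is a run of letters, not a measured binding site.

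In 8 genes a CHR match and a CCAAT match both lay in the 100 bases before the start site. That stretch is shown for the 6 of them where at most 30 of its bases lie past the gene's outermost start, 5′ to 3′, to let the spacing be read; capitals mark the CHR letters and CCAAT on either strand.
Cdk1 (chr10:69352913-69353012, minus strand): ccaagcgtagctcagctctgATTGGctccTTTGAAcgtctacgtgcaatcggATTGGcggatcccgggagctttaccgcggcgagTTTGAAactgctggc
Cdc20 (chr4:118437344-118437443, minus strand): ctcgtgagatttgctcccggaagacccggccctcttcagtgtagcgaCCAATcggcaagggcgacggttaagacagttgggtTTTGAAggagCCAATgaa
Ube2c (chr2:164769829-164769928, plus strand): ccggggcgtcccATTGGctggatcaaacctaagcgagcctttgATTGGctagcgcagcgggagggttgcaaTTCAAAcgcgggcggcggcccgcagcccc
Bub3 (chr7:131560270-131560369, plus strand): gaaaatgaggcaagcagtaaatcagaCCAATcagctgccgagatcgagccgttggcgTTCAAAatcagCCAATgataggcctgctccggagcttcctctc
Kif11 (chr19:37376282-37376381, plus strand): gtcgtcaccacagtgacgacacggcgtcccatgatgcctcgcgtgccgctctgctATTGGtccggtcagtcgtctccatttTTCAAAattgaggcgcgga
Top2a (chr11:99024190-99024289, minus strand): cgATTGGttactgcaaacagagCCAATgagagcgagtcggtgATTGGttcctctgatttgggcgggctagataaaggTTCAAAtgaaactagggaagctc
Counted by the first base as printed, with −1 the base before the start, the CHR match was at −18 in Cdc20, −19 in Kif11, −23 in Top2a and −29 in Ube2c, and in the 2 genes not shown at −27 (Espl1) and −30 or −5 (Prc1, by start site). Cdk1 held a pair, at −71 and −15. In Bub3 the match at −43 lay between CCAAT matches at −74 and −32 by the start site used for the stretch shown, and by its other listed start the 3 matches were at −167, −198 and −156. In Cdc20 a CCAAT match at −8 was nearer the start than the CHR match; in Cdk1, Ube2c, Kif11 and Top2a a CHR match was nearest the start. Ccnb2, whose cyclin partners CDK1, had 3 CCAAT matches 33 bases apart at −87, −54 and −21, and CHR matches at −167 and, past the start, at 5. Birc5, Mad2l1, Nuf2 and Nusap1 held neither motif in the window.

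**Figure D1:**
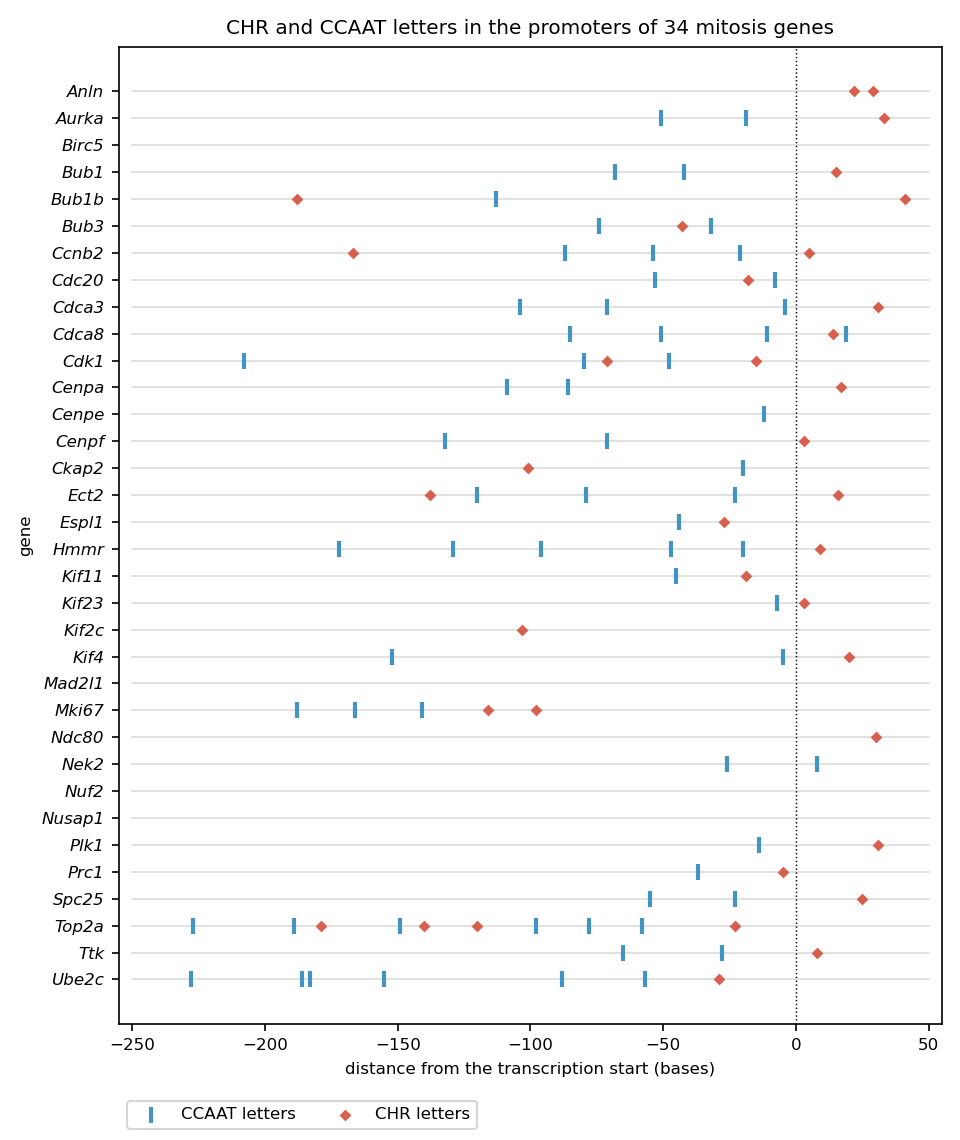
CHR matches (diamonds) and CCAAT matches (bars) by distance in bases from the transcription start, 1 row for each of the 34 mitosis genes with a RefSeq promoter. For the 3 genes with 2 listed start sites the one with the lower coordinate is drawn. CHR matches gather near the start, with CCAAT matches mostly upstream of them.

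Cops8 itself had log2 signals of 8.26, 8.22 and 8.10 in CSN8fl/fl and 7.68, 7.61 and 7.77 in CSN8ΔIEC, with no overlap (difference −0.50 ± 0.11, adjusted p = 0.0865); no source used here says whether its probes lie in the deleted part. All values here are the deposited log2 signals, and differences are CSN8ΔIEC minus CSN8fl/fl, with 3 arrays a genotype, the SE and the adjusted p of limma's moderated model (Benjamini-Hochberg over all 19505 genes, threshold 0.05). Arrays have no read depth, so their number limits the precision. Across all genes the arrays correlated at 0.976 to 0.994, and for the third CSN8fl/fl array they reached no higher than 0.986. The brightest markers of their lists were Spink4 for Paneth cells, at 12.94 to 13.69, and Slc12a2 for the crypt base, at 11.10 to 12.18. Slc12a2 stood apart from the other stem cell markers, of which Sox9 was the next brightest, at 9.17 to 9.75. Enterocyte genes were bright as well, with Anpep at 13.63 to 13.85 (a brush border peptidase of mature enterocytes).

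Mitosis genes had slightly higher signals in CSN8ΔIEC crypts, and no gene of the 40 passed the threshold. Every one of the 40 differences was above 0, from 0.17 for Bub3 to 0.72 for Bub1, with a median of 0.41 against −0.011 over all genes. The called count was 0 of 40 (adjusted p from 0.122 to 0.771), where 210 genes or 1.08% of all genes were called. At an unadjusted p under 0.05, 12 of the 40 were higher in CSN8ΔIEC (30.0%), against 6.95% of all genes. In 17 of the 40 (42.5%) every CSN8ΔIEC signal lay above every CSN8fl/fl signal, against 10.7% of all genes, and in none did it lie below.

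Much of this difference came with 1 array. CSN8fl/fl replicate 3 gave the lowest of the 6 signals for all 40 genes, where it was lowest for 25.7% of all genes. Its signals lay a median of 0.77 lower than the mean of the other 2 controls over the 40 genes, and 0.012 below it over all genes. Without it, the median difference of the mitosis genes was 0.14, against −0.011 over all genes; 33 differences were above 0 and 7 below. None of the 40 was then called (adjusted p from 0.173 to 0.996), against 151 genes or 0.774% of all genes, and 5 were higher at an unadjusted p under 0.05 (12.5%, against 5.86%). Those 5 were Nuf2, Bub1, Kif23, Mki67 and Anln. The count of 17 without overlap stayed at 17 against 15% of all genes, which follows from replicate 3 being the lowest control for each gene. The other arrays mattered less to the median, which was 0.38 to 0.58 without any 1 of the other 5. CSN8fl/fl replicate 2 was the higher of the other controls for 31 of the 40 genes. Without it, 32 genes had no overlap (80%, against 16.5% of all genes).

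**Figure D2:**
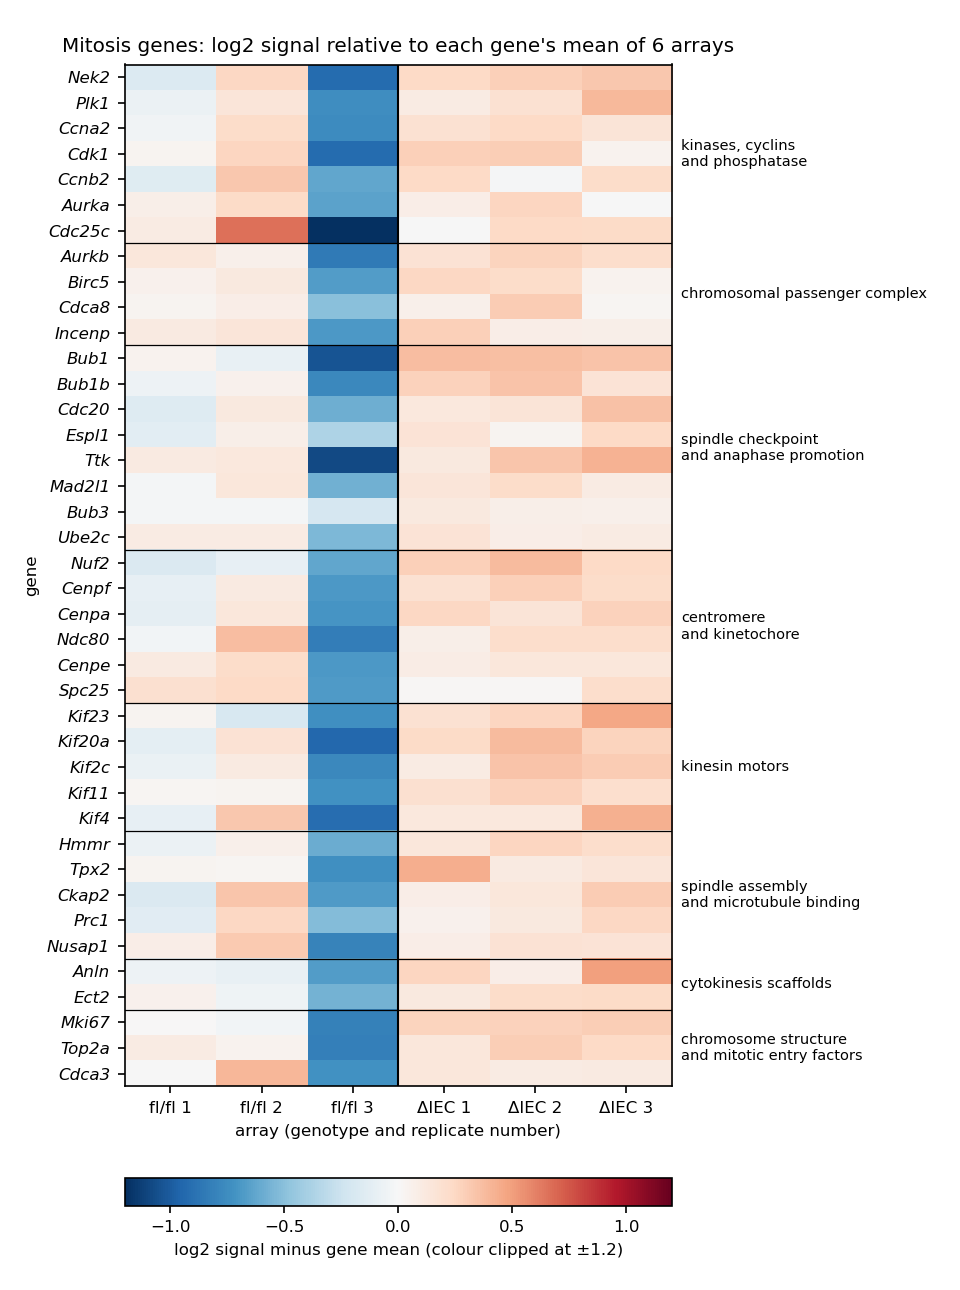
Log2 signal of each of the 40 mitosis genes on each of the 6 arrays, relative to that gene's mean over the arrays (blue lower, red higher; genes grouped by role). The column of CSN8fl/fl replicate 3 is the lowest for all 40 genes, and the 3 CSN8ΔIEC columns lie close together.

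Within CSN8ΔIEC the mitosis genes varied little. Their range over the 3 arrays had a median of 0.17, against 0.26 for all genes, and was at most 0.42. All 40 had a mean signal above the median of all gene means (6.87), and genes of like signal were not compared. In CSN8fl/fl the median range was 0.86, against 0.33 for all genes, while replicates 1 and 2 differed by a median of 0.16. The summed linear signal of the 40 genes was 28400 and 31000 for the first 2 controls, 17800 for the third, and 32300, 32800 and 33100 for CSN8ΔIEC.

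**Figure D3:**
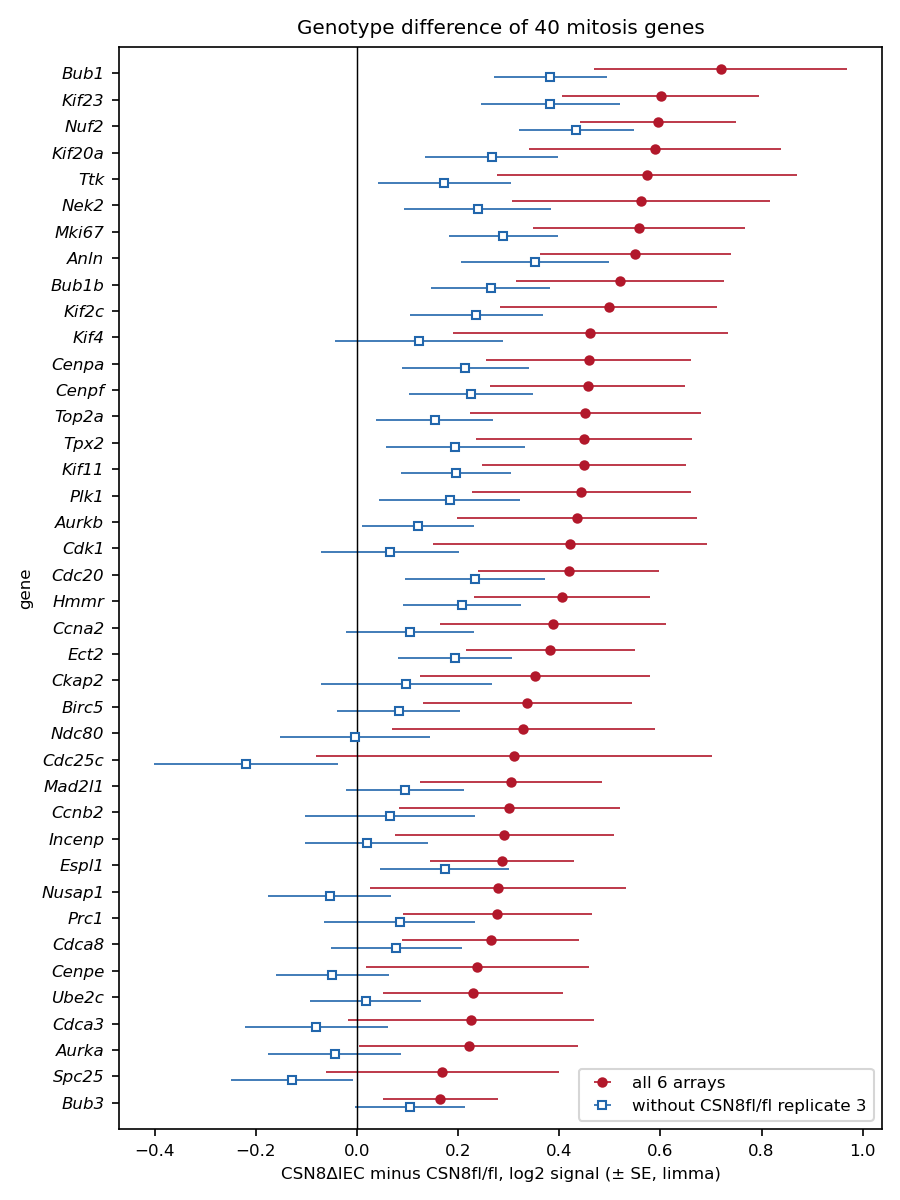
Genotype difference of each of the 40 mitosis genes in log2 signal with its SE, from all 6 arrays (filled circles) and without CSN8fl/fl replicate 3 (open squares), ordered by the first. All circles lie above 0, and 7 squares lie below it.

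Among the kinases and cyclins that drive entry into mitosis, 0 of 7 passed and in none were the genotypes free of overlap. Nek2, a centrosome kinase (NCBI gene ID 18005), gave 8.76, 9.17 and 8.0 (CSN8fl/fl, replicates 1 to 3) against 9.16, 9.21 and 9.25 (CSN8ΔIEC), a difference of 0.56 ± 0.26 (adjusted p = 0.344). Its CSN8fl/fl replicate 2 reached the CSN8ΔIEC signals and replicate 3 lay far below. The Polo-like kinase Plk1 (ID 18817) stood at 10.16, 10.38 and 9.49 against 10.33, 10.42 and 10.62 (0.44 ± 0.22, adjusted p = 0.384), with the same layout. Ccna2, cyclin A2, and Ccnb2, cyclin B2, had differences of 0.39 and 0.30, which were 0.10 and 0.065 without CSN8fl/fl replicate 3. Cdk1, the kinase that both cyclins activate, had 0.42 and then 0.066. Aurka, the spindle pole Aurora kinase, had 0.22 and then −0.044. Cdc25c, the phosphatase that switches CDK1 on, was the dimmest and most variable of the 40, at 7.19, 7.75 and 5.88 in CSN8fl/fl and 7.09, 7.33 and 7.32 in CSN8ΔIEC. Its difference of 0.31 ± 0.39 (adjusted p = 0.75) turned to −0.22 ± 0.18 without CSN8fl/fl replicate 3 (adjusted p = 0.649).

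The chromosomal passenger complex, which corrects faulty attachments of chromosomes to the spindle, had 0 of 4 genes past the threshold. Its kinase Aurkb (ID 20877) gave 9.73, 9.66 and 8.75 in CSN8fl/fl and 9.77, 9.86 and 9.81 in CSN8ΔIEC, without overlap (0.44 ± 0.24, adjusted p = 0.431). Birc5, or survivin (ID 11799), gave 9.64, 9.71 and 8.92 against 9.84, 9.81 and 9.63 (0.34 ± 0.21, adjusted p = 0.481), and here CSN8ΔIEC replicate 3 lay below the first 2 controls. The scaffold Incenp and the targeting subunit Cdca8, or borealin, had 0.29 and 0.26. Without CSN8fl/fl replicate 3 the 4 differences lay between 0.019 and 0.12.

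Genes of the spindle checkpoint and of anaphase onset held the largest difference, with 0 of 8 past the threshold and 4 without overlap. Bub1, a checkpoint kinase at the kinetochore (ID 12235), gave 8.74, 8.61 and 7.66 in CSN8fl/fl and 9.07, 9.06 and 9.04 in CSN8ΔIEC, 1.65-fold on the linear scale (0.72 ± 0.25, adjusted p = 0.23). The 3 CSN8ΔIEC arrays differed little among themselves and all lay above the controls. Bub1b, which encodes the checkpoint protein BubR1 (ID 12236), gave 8.71, 8.82 and 8.0 against 9.05, 9.11 and 8.94 (0.52 ± 0.21, adjusted p = 0.283). For Cdc20, the activator of the anaphase-promoting complex (ID 107995), the signals were 8.63, 8.90 and 8.20 against 8.91, 8.94 and 9.14 (0.42 ± 0.18, adjusted p = 0.316). In both genes the lowest CSN8ΔIEC signal exceeded the highest control, for Cdc20 by little. Without CSN8fl/fl replicate 3, Bub1, Bub1b and Cdc20 had differences of 0.38 ± 0.11, 0.26 ± 0.12 and 0.23 ± 0.14 (adjusted p = 0.21, 0.391 and 0.527). Ttk, the kinase MPS1 that starts checkpoint signalling, had 0.57, and 0.17 without that array. Bub3, the adaptor of Bub1 and BubR1 (ID 12237), was the flattest, at 10.96, 10.96 and 10.78 against 11.10, 11.05 and 11.04 (0.17 ± 0.11, adjusted p = 0.531), yet without overlap. Mad2l1, the checkpoint effector MAD2, Espl1, separase, and Ube2c, a ubiquitin-conjugating enzyme of the anaphase-promoting complex, had 0.30, 0.29 and 0.23.

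At the centromere and kinetochore, 0 of 6 genes passed and 3 had no overlap. Nuf2 (ID 66977), part of the NDC80 complex that holds microtubules, had the smallest p of the 40. Its signals were 9.09, 9.17 and 8.64 in CSN8fl/fl and 9.55, 9.64 and 9.50 in CSN8ΔIEC, 1.51-fold (0.60 ± 0.15, adjusted p = 0.122), and 0.43 ± 0.11 remained without CSN8fl/fl replicate 3 (adjusted p = 0.173). For its partners in that complex, Ndc80 had a difference of 0.33 ± 0.26 and Spc25 of 0.17 ± 0.23, and without that array −0.0030 ± 0.15 and −0.13 ± 0.12. Spc25 stood at 8.21, 8.25 and 7.34 in CSN8fl/fl and 8.03, 8.03 and 8.23 in CSN8ΔIEC, so that CSN8fl/fl replicates 1 and 2 lay above CSN8ΔIEC replicates 1 and 2. The difference between Nuf2 and its partners was not tested. Cenpf, a large protein of the outer kinetochore (ID 108000), gave 8.25, 8.46 and 7.66 against 8.53, 8.64 and 8.57 (0.46 ± 0.19, adjusted p = 0.313), and Cenpa, the centromeric histone (ID 12615), 9.74, 9.99 and 9.14 against 10.10, 10.01 and 10.13 (0.46 ± 0.20, adjusted p = 0.334). Both lacked overlap, Cenpa narrowly, since CSN8fl/fl replicate 2 was close to CSN8ΔIEC replicate 2. The kinesin Cenpe had 0.24, and −0.048 without CSN8fl/fl replicate 3.

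The kinesin motors had the highest median of the role groups of over 3 genes, 0.50 over 5 genes, with 0 past the threshold and 3 without overlap. Kif23, the motor of the central spindle (ID 71819), gave 10.07, 9.85 and 9.30 in CSN8fl/fl and 10.22, 10.30 and 10.50 in CSN8ΔIEC (0.60 ± 0.19, adjusted p = 0.198). Kif20a, needed for cytokinesis (ID 19348), gave 8.81, 9.10 and 7.99 against 9.16, 9.31 and 9.20 (0.59 ± 0.25, adjusted p = 0.312). Every CSN8ΔIEC array lay above every control in both. Kif2c, which takes microtubules apart at centromeres (ID 73804), gave 8.54, 8.73 and 7.85 against 8.72, 8.96 and 8.93 (0.50 ± 0.21, adjusted p = 0.322), where CSN8fl/fl replicate 2 slightly exceeded CSN8ΔIEC replicate 1. Kif11, the motor that pushes spindle poles apart, and the chromosome-bound Kif4 had 0.45 and 0.46. Without CSN8fl/fl replicate 3 the 5 differences were between 0.12 for Kif4 and 0.38 for Kif23.

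Spindle assembly and microtubule-binding proteins came to 0 of 5 past the threshold, with a median of 0.35. Hmmr, a spindle assembly factor (ID 15366), gave 8.86, 8.99 and 8.33 in CSN8fl/fl and 9.06, 9.19 and 9.14 in CSN8ΔIEC (0.41 ± 0.17, adjusted p = 0.318), and Tpx2, the activator of Aurora A (ID 72119), 8.76, 8.75 and 7.99 against 9.16, 8.83 and 8.87 (0.45 ± 0.21, adjusted p = 0.369). Both were free of overlap; for Tpx2, CSN8ΔIEC replicate 1 was the high one and the other 2 lay just above the first 2 controls. Prc1, the microtubule bundler of the midzone, Ckap2 and Nusap1, both microtubule-binding, had 0.28, 0.35 and 0.28, and 0.084, 0.098 and −0.054 without CSN8fl/fl replicate 3.

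For cytokinesis, Anln, or anillin, the scaffold of the contractile ring (ID 68743), gave 7.43, 7.40 and 6.82 in CSN8fl/fl and 7.75, 7.57 and 7.98 in CSN8ΔIEC (0.55 ± 0.19, adjusted p = 0.221). Ect2, the exchange factor that activates RhoA there (ID 13605), gave 10.03, 9.93 and 9.41 against 10.10, 10.20 and 10.21 (0.38 ± 0.17, adjusted p = 0.331). Neither overlapped and neither passed. Mki67, the Ki-67 coat protein of mitotic chromosomes and the usual marker of cycling cells (ID 17345), gave 11.63, 11.59 and 10.81 against 11.89, 11.90 and 11.92, 1.47-fold (0.56 ± 0.21, adjusted p = 0.263). CSN8fl/fl replicates 1 and 2 were close to each other, all CSN8ΔIEC arrays lay within a narrow band above them, and 0.29 ± 0.11 remained without replicate 3 (adjusted p = 0.312). Top2a, the topoisomerase that untangles sister chromatids (ID 21973), gave 9.74, 9.68 and 8.82 against 9.78, 9.94 and 9.88 (0.45 ± 0.23, adjusted p = 0.401), without overlap by a small margin. Cdca3, a trigger of mitotic entry, had 0.23 with all arrays and −0.080 without CSN8fl/fl replicate 3.

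The genotype difference was also taken within each labelled sex and age. Between the labelled females of 16 weeks (2 arrays against 2) the median over the 40 genes was 0.13, with 34 differences above 0 and 6 below. Between the labelled males of 10 weeks (1 against 1) it was 0.94, with all 40 above 0. The smallest was Bub3, at 0.26 in the males and 0.12 in the females. Ttk had 1.5 and 0.11, and Cdc25c 1.45 and −0.26. In CSN8fl/fl the male array lay below the mean of the females for each of the 40 genes, from −0.18 (Bub3) to −1.59 (Cdc25c), while in CSN8ΔIEC the median difference between male and females was 0.020. The interaction of genotype with labelled sex and age was called for 0 of the 40 (limma, adjusted p from 0.347 to 0.843) and for 0 of 19505 genes (0%). At an unadjusted p under 0.05 the difference was larger in the pair labelled male for 34 of the 40, against 5.59% of all genes. Since each genotype had 1 labelled male, the interaction p-values took their spread between arrays from the labelled females alone. They hold no spread between males, so the count of 34 does not test an effect of sex or age. All 40 genes were lowest on the same array, so the 34 are not independent results. The larger difference rests on the array of CSN8fl/fl replicate 3, and sex and age cannot be told apart from that single preparation.

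**Figure D4:**
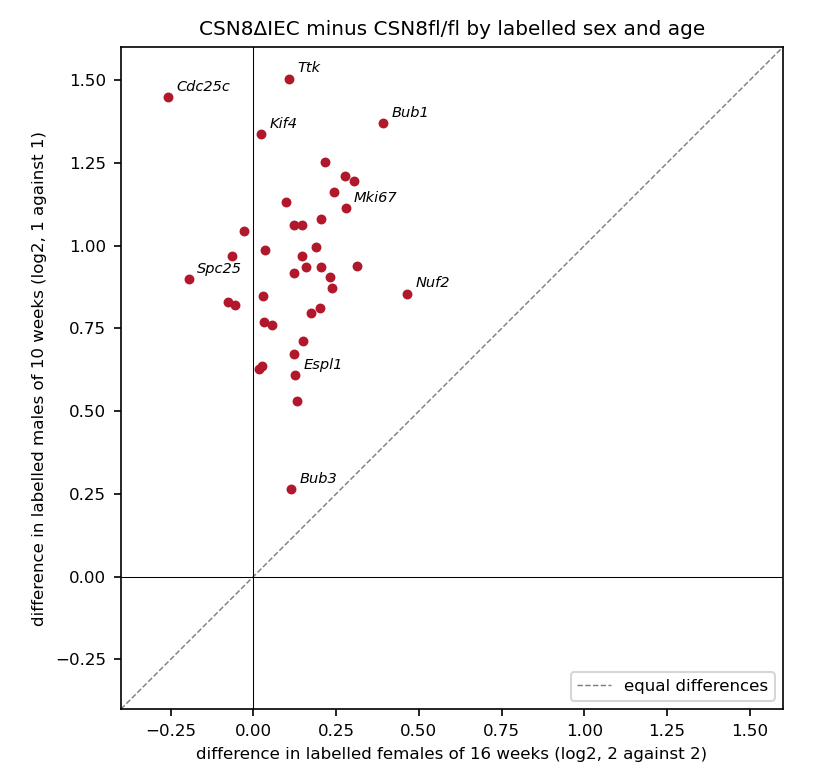
Genotype difference in log2 signal of the 40 mitosis genes in the labelled females of 16 weeks (horizontal axis, 2 arrays against 2) and in the labelled males of 10 weeks (vertical axis, 1 against 1); the dashed line marks equal differences. All 40 points lie above the line, and 6 lie left of 0.

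Other genes of the same machinery, from lists chosen by function with earlier results of these data known, mostly had differences above 0 as well. None of them passed the threshold. Of 28 other regulators of G2 and M, 26 had differences above 0, with a median of 0.25 and 6 without overlap (21.4%, against 10.7% of all genes). Pbk, a mitotic kinase, had 0.67 (adjusted p = 0.199), and Melk, another, 0.63 (adjusted p = 0.278). Condensin and cohesin, the rings that compact and tie chromosomes, had 20 of 22 above 0, a median of 0.28 and 8 without overlap; Smc2, a condensin core subunit, had 0.54 (adjusted p = 0.188) and Cdca5, or sororin, 0.71 (adjusted p = 0.188). Further centromere and kinetochore genes had 30 of 32 above 0, a median of 0.29 and 12 without overlap, with the checkpoint gene Mad1l1 at 0.41 (adjusted p = 0.158) and Cenpw at 0.51 (adjusted p = 0.186). Further motors and cytokinesis genes had 19 of 21 above 0, a median of 0.37 and 9 without overlap, with Cep55, an abscission protein, at 0.72 (adjusted p = 0.161). The subunits of the anaphase-promoting complex had a smaller median of 0.19, with 12 of 16 above 0; Cdc27 had 0.32 (adjusted p = 0.248). Without CSN8fl/fl replicate 3 these 5 medians were 0.11, 0.080, 0.13, 0.13 and 0.056.

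DNA replication genes, which act just before mitosis, had a median of 0.47, with all 38 above 0 and 27 without overlap (71.1%, against 10.7% of all genes), and 0 passed. At an unadjusted p under 0.05 in limma, 24 were higher (63.2%, against 6.95% of all genes). Without CSN8fl/fl replicate 3 that count was 16 (42.1%, against 5.86%). Their median was 0.26 without CSN8fl/fl replicate 3, beside 0.14 for the mitosis genes. Uhrf1, which guides maintenance of DNA methylation, had 0.79 (adjusted p = 0.0543), Dtl, a substrate receptor of a cullin-RING ligase, 0.84 (adjusted p = 0.0659) and Rrm2, a ribonucleotide reductase subunit, 0.74 (adjusted p = 0.0684). CSN8fl/fl replicate 3 was the lowest array for 37 of the 38 replication genes, 26 of the 28 G2/M regulators and 31 of the 32 centromere and kinetochore genes. The difference between the replication and the mitosis genes was not tested.

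Tuft cell, enterocyte, T cell, Paneth cell and goblet cell markers had their highest summed signals in the control array with the lowest mitosis signals. Stem cell, B cell and enteroendocrine markers had their lowest there. Of 12 listed tuft cell markers 11 were measured, and all 11 were highest in CSN8fl/fl replicate 3, the array lowest in mitosis genes; their summed linear signal was 2330, 2640 and 6870 in CSN8fl/fl and 1110 to 1220 in CSN8ΔIEC. Enterocyte markers (12 of 14 measured) were highest there for 9 genes, with a summed signal of 104000 against 83100 and 87600 in the other controls and 76300 to 98400 in CSN8ΔIEC. T cell and intraepithelial lymphocyte markers (9 of 12) were highest there for 7 genes, with a sum of 5140 against 3150 and 3420, and 2430 to 3430 in CSN8ΔIEC. Stem cell markers (10 of 12), by contrast, were lowest there for 8 genes, with a sum of 4770 against 6630 and 7280, and 6820 to 8540 in CSN8ΔIEC. Paneth cell markers (13 of 13) separated by genotype, with sums of 90400 to 94400 in CSN8fl/fl and 36200 to 59900 in CSN8ΔIEC. Their sum was highest in CSN8fl/fl replicate 3 by a small margin. For marker lists, fell and rose mean lower or higher in CSN8ΔIEC past the threshold, which 1.08% of all genes passed. Of the 13 Paneth cell markers all had differences below 0, and 7 fell (Ang4, Habp2, Nupr1, Mptx1, Defa26, Mptx2 and Mmp7). Among the tuft cell markers Dclk1, Rgs13, Siglecf and Pou2f3 fell. The part of the mixture of cells in the mitosis gene signals was not tested.

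Of the remaining marker lists, goblet cells had a median difference of −0.40 over 9 genes (Ccl6, Clca1, Tpsg1 and Tff3 fell), enteroendocrine cells 0.18 over 11 (Tac1 and Cck rose, Sst fell), B and plasma cells −0.40 over 8, myeloid cells −0.083 over 10, and stroma, muscle and endothelium 0.080 over 11 (Lyve1 and Acta2 rose). In CSN8fl/fl replicate 3 the goblet cell sum was 51600 against 49000 and 45900 in the other controls. Of the 9 goblet cell genes, 4 were highest there and 1 was lowest. The B cell sum was 241 there against 598 and 554, with 5 of 8 genes lowest. The enteroendocrine sum was 3800 there against 4030 and 4040, and 3900 to 4490 in CSN8ΔIEC. Of those 11 genes, 5 were lowest there and 2 highest. No gene of the stem cell, enterocyte, T cell, B cell or myeloid lists passed. Without CSN8fl/fl replicate 3, 1 goblet cell, 2 enteroendocrine, 1 stromal and 2 B cell markers were called, beside 5 of tuft cells and 5 of Paneth cells. Of all genes 0.774% were then called.

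**Figure D5:**
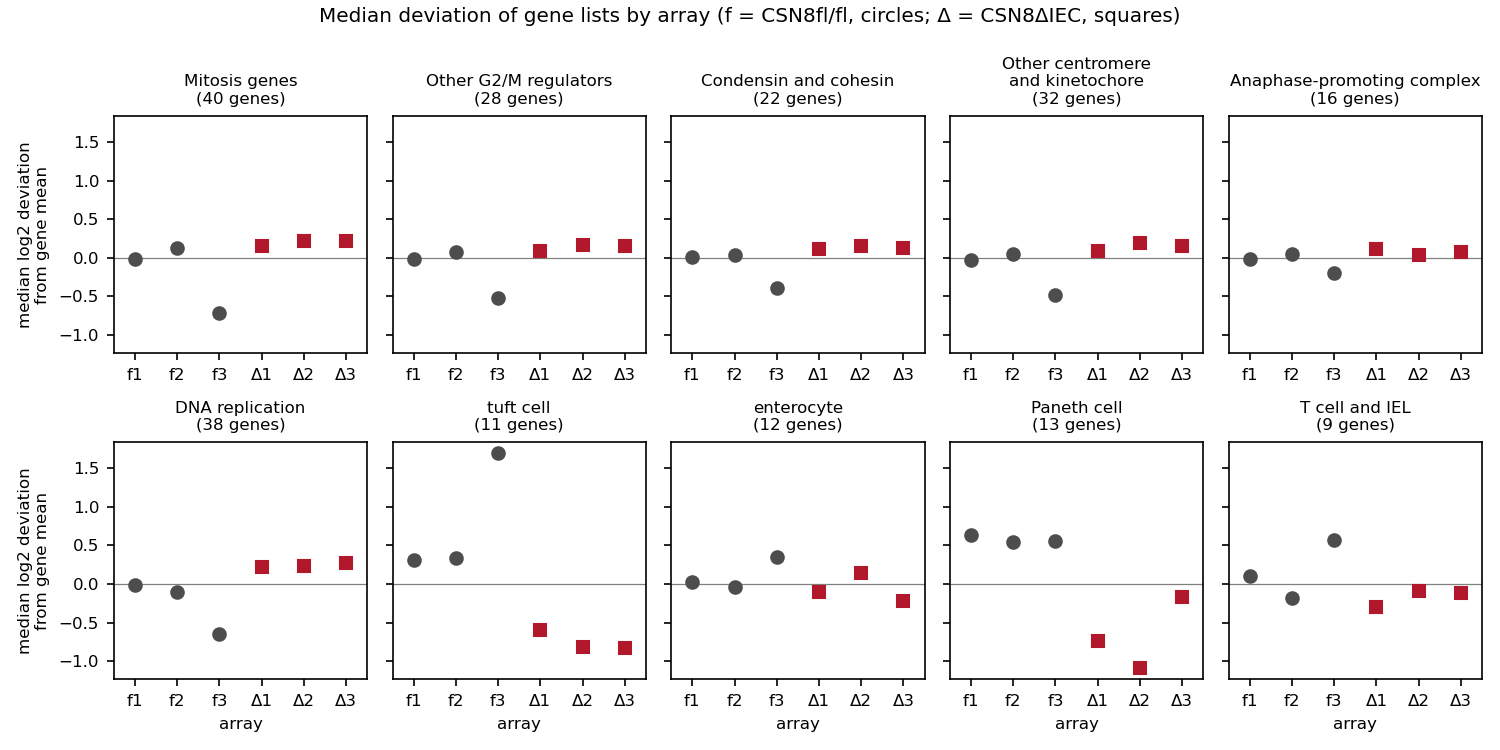
Median deviation in log2 signal from each gene's mean of 6 arrays, by array, for the 40 mitosis genes, 5 further cell cycle lists and 4 cell type marker lists (f1 to f3, CSN8fl/fl replicates, circles; Δ1 to Δ3, CSN8ΔIEC replicates, squares). The third control is at −0.72 for the mitosis genes and at 1.69 for tuft cell markers.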

How the data were processed

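The deposited values are log2 signals of 22206 probe sets on 6 arrays, made by the authors with the RMA method. Per the submitters' processing notes the software was Partek 6.6, and no source used here gives its settings or a genome build. Platform annotation gave 1 symbol to 19572 probe sets, several to 0 and none here to 2634. For 55 genes the probe set with the highest mean was kept, which left 19505; each mitosis gene had 1 probe set. Listed genes were matched by symbol or synonym.

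Genotypes were compared with limma 3.58.1 in R 4.3.3 (lmFit, eBayes) on all 6 arrays without covariates, with 8.85 residual degrees of freedom after moderation; tests are two-sided. The fit was tested on simulated data with independent noise for each gene. That check does not cover an array that deviates for many genes together. A further model added the interaction with labelled sex and age, where the spread between arrays came from the labelled females alone. Lists are described by counts and medians beside those of all genes, with no set test. The 41 genes, the 9 other cell cycle lists and the 10 marker lists were chosen with earlier results of these data known. Values are given array by array for 20 genes, up to 3 per role group by smallest p and the one with the smallest difference, and for Spc25 and Cdc25c, chosen after their values were seen. From each other list, genes named were among the 3 with the smallest p, and from marker lists those past the threshold or among the 2 brightest. Alternatives left out each array, used the replicate number as a block, labelled sex and age as a covariate, the labelled females alone, a filter on the dimmest 40% of genes, the mean of probe sets, an intensity trend, centred arrays, or array weights.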

Additional observations from a re-analysis of the deposited data

How the results depend on the processing

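No mitosis gene was called under any of the 14 alternatives, where the smallest adjusted p was 0.0794 (Nuf2, dim genes left out). The 210 genes called over all genes were 41 to 228 without any 1 array (41 without CSN8ΔIEC replicate 1, 122 without replicate 2, 114 without replicate 3 and 109 without CSN8fl/fl replicate 2), 97 in the labelled females alone and 324 with an intensity trend. The runs without an array and those of the labelled females alone also had fewer samples. The cause of these changes was not tested. The mitosis genes without overlap, 17 with all arrays, were 17 to 32 without any 1 array and 17 to 21 under the other alternatives. The share of all genes without overlap changed too, since fewer arrays overlap less easily. It was 10.7% with all arrays, 15% to 16.5% without a CSN8fl/fl array and 20.4% in labelled females alone. Their median difference was 0.138 to 0.582 without any 1 array, 0.129 in labelled females alone and 0.272 with array weights. Without CSN8fl/fl replicate 3 the sign turned for Cdc25c (−0.22), Spc25 (−0.13), Cdca3 (−0.080), Nusap1 (−0.054), Cenpe (−0.048), Aurka (−0.044) and Ndc80 (−0.0030), and in labelled females alone for Cdc25c (−0.26), Spc25 (−0.20), Cdca3 (−0.077), Nusap1 (−0.066), Cenpe (−0.054) and Ndc80 (−0.028); none of these was called before or after. Without any 1 array these 7 reached at most 0.72, 0.33, 0.48, 0.50, 0.41, 0.39 and 0.60, each without CSN8fl/fl replicate 2. Of the 211 further cell cycle genes, 0 were called with all arrays and 0 to 3 without any 1 array (Dtl, E2f6 and Rrm2 without CSN8fl/fl replicate 1). With dim genes left out, and with an intensity trend, 3 were called (Uhrf1, Dtl and Rrm2), with array weights 2 (Uhrf1 and Dtl), and with the sex and age covariate or centred arrays 1 (Uhrf1). The interaction was called for 0 of the 40 under each of its 4 alternatives.

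Apart from labelled sex and age, which set replicate 3 apart from replicates 1 and 2 alike, same-numbered replicates share only a number. Over all genes their deviations from the group means correlated at 0.117, −0.024 and 0.038. With the replicate number as a block, 202 genes and 0 mitosis genes were called, and the median difference stayed at 0.412.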

Other observations

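Regulators upstream of mitosis were mixed, and none passed the threshold. Among 24 transcription factors that control mitotic genes, 19 had differences above 0 (median 0.18). In 7 every CSN8ΔIEC signal lay above the controls (29.2%, against 10.7% of all genes). In 3 every one lay below, near the share of all genes (2278 of 19505). The median difference was 0.077 without CSN8fl/fl replicate 3, with 14 above 0 and 10 below. E2f6, a repressor of the E2F family, gave 8.28, 7.81 and 7.63 in CSN8fl/fl and 8.83, 8.6 and 8.53 in CSN8ΔIEC (0.75, adjusted p = 0.0993), and Mybl2, which encodes B-MYB, gave 7.54, 7.63 and 7.14 against 8.05, 7.78 and 8.29 (0.61, adjusted p = 0.159). E2f3, an activator, had 0.58 (adjusted p = 0.156). All 3 lacked overlap, and without CSN8fl/fl replicate 3 their differences were 0.61, 0.46 and 0.45. Foxm1 was not analysed here.

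Of 15 CDK inhibitors, G1 cyclins and their kinases, 9 had differences above 0 (median 0.20, and 0.085 without CSN8fl/fl replicate 3). At an unadjusted p under 0.05 in limma, 4 were higher with all arrays (26.7%, against 6.95% of all genes). Without that array 1 was higher (6.67%, against 5.86%), near the share of all genes. In each setting 1 of the 15 was lower at that threshold, no more than the share of all genes. Of all 19505 genes, 1562 were lower with all arrays and 1450 without that array. Cdkn2b, the inhibitor p15, was lower in every CSN8ΔIEC array, at 9.46, 9.85 and 9.99 in CSN8fl/fl and 9.17, 9.33 and 8.90 in CSN8ΔIEC (−0.63, adjusted p = 0.134), and Ccne1, cyclin E1, was higher in every one (0.49, adjusted p = 0.199; 0.32 without CSN8fl/fl replicate 3). Cullin-RING ligases with a part in the cell cycle had a median of 0.16 over 17 genes, with 13 above 0, and a median of 0.091 without CSN8fl/fl replicate 3. Besides Dtl, Skp2, the F-box protein that marks the inhibitor p27, had 0.39 (adjusted p = 0.267) and Klhl13, an adaptor for Aurora B, −0.28 (adjusted p = 0.284). Klhl13 was dim, at 4.86 to 5.29 over the 6 arrays, where the median of all gene means was 6.87.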
